A study of Mus musculus with 2 samples.

Results

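High-mitochondrial barcodes are the droplets of a single-cell library in which a large share of the captured RNA comes from the mitochondrial genome. They were selected here on that measured share: every barcode in which the 13 mitochondrially encoded protein genes held 25% or more of the UMIs (unique molecular identifiers, 1 per captured RNA molecule). The rule took 2196 of 19406 barcodes in the series (11.3%), 595 of 10181 control barcodes and 1601 of 9225 from the Mettl14_cKO library. The study isolated colonic crypt cells from C57BL/6 mice aged 4 weeks and sequenced them with the 10x Genomics protocol. Control mice carried floxed alleles that the labels write as M14(f/f), read here as Mettl14, a core subunit of the complex that writes N6-methyladenosine on RNA. Mettl14_cKO mice were M14(f/f);Villin-Cre, with the same floxed alleles and a Cre recombinase that the Villin promoter drives in the gut epithelium, so their immune cells were not its target. Each genotype was 1 library from the pooled cells of 3 mice, and the second is termed the knockout library. With 1 library per genotype no difference between genotypes could be tested, and genotype, capture and handling of the pool cannot be told apart.

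Mitochondrial transcripts lie inside an organelle with its own double membrane, whereas most nuclear-encoded mRNA lies free in the cytosol. A cell whose outer membrane leaks loses cytosolic RNA first and keeps its mitochondria and nucleus, so a high mitochondrial share is widely used as a sign of damage and such barcodes are usually removed. Cells rich in mitochondria, such as absorptive colonocytes near the crypt surface, can also pass such a threshold while intact. The colonic crypt holds stem and cycling cells at its base, mucus-secreting goblet cells, absorptive colonocytes that mature toward the surface, hormone-making enteroendocrine cells, chemosensory tuft cells and scattered lymphocytes.

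The high-mitochondrial share of the control library was 5.84% of barcodes (95% exact binomial interval 5.396 to 6.32%), and that of the knockout library was 17.4% (16.6 to 18.1%). All intervals in the text are 95% intervals that cover counting error only. The libraries held 111239295 and 89729527 UMIs, with a minimum of 500 per barcode in both. The selected barcodes were shallow. Their median depth was 732 total UMIs in the control (range 500 to 7768) and 1244 in the knockout library (500 to 16674), against 9674 and 5474 in the barcodes under 25%. Their median number of detected genes was 364 and 485, and 75.1% of them in the control and 51.5% in the knockout library had fewer than 500 genes. They held 0.505% of all UMIs and 4.15% of the mitochondrial UMIs of the control library, but 3.12% and 21.4% of those of the knockout library. The libraries shared 33 barcode sequences, of which 2 were high-mitochondrial in the control and 7 in the knockout library.

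Depth and mitochondrial share moved together. Among control barcodes with 500 to under 1000 UMIs 41.9% were high-mitochondrial (436 of 1041), against 9.97% at 1000 to under 2000 UMIs, 2.33% at 2000 to under 4000 and 0.355% at 4000 to under 8000. No control barcode of 8000 UMIs or more passed (0 of 5538, which allows a share of up to 0.0542%). For the knockout library the shares in these bins were 53.9%, 28.6%, 20.01%, 7.83% and 0.466%. The knockout share was the higher in each of the 5 bins. Binomial intervals for these shares cover counting error only and not the spread between libraries, so the difference was not tested.

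**Figure D1:**
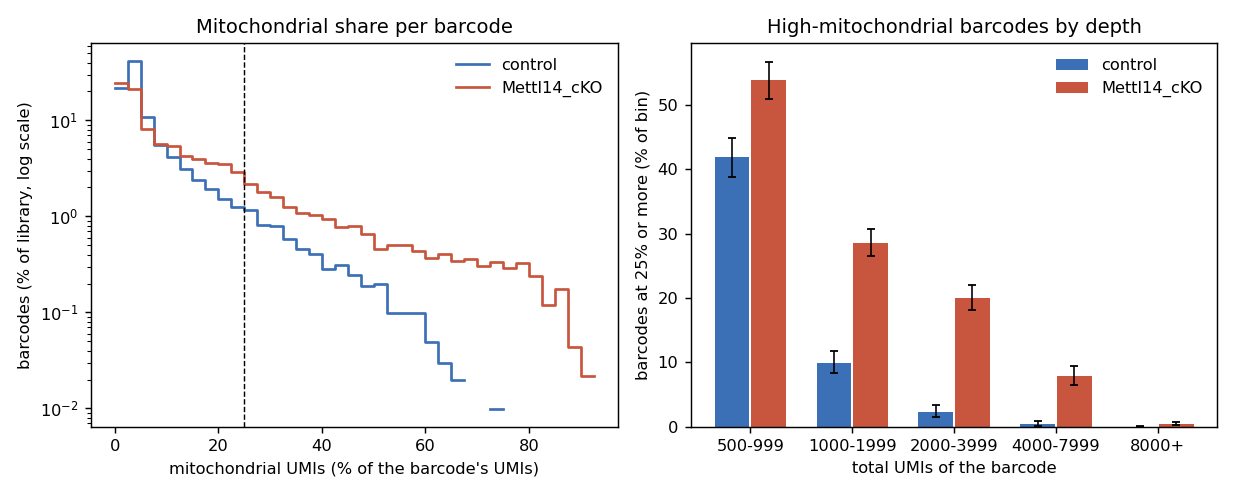
Left, mitochondrial share of the barcode (2.5-point bins) against the percent of barcodes in the library on a log scale, with the 25% rule dashed. Right, percent of barcodes at 25% or more in 5 bins of total UMIs, with bars for the observed share and lines for the exact binomial interval. The knockout library is above the control in every depth bin, and its tail reaches 91.9%.

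The mitochondrial share itself varied more in the knockout library. Its median among the selected barcodes was 33.1% in the control (quartiles 28.2 and 41.5%, highest 73.5%) and 39.1% in the knockout library (30.5 and 54.8%, highest 91.9%). In the control 11 of 595 barcodes (1.85%) had 60% or more mitochondrial UMIs, and in the knockout library 307 of 1601 did (19.2%). The rule used these shares, so they are a description only. Neither library had a gap at the threshold: 201 control and 367 Mettl14_cKO barcodes had 25 to 30%. Of the barcodes under 3000 UMIs, 197 control and 263 Mettl14_cKO barcodes had 25 to 30%, beside 258 and 368 just outside the rule at 20 to 25%.

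The 13 mitochondrial genes encode subunits of the respiratory chain and of ATP synthase. Within the mitochondrial UMIs the genes kept nearly the same proportions in high-mitochondrial barcodes as in barcodes under 25% of the same depth. In the control mt-Co1, a subunit of cytochrome c oxidase, led with 20.4% of the mitochondrial UMIs against 21.1% under the threshold. The cytochrome oxidase gene mt-Co2 followed with 18.8% against 16.9%, and the ATP synthase gene mt-Atp6 held 16.0% against 15.5%. On the knockout side mt-Atp6 led with 18.2% against 18.3%, followed by mt-Co2 with 16.5% against 16.0% and mt-Co1 with 14.3% against 15.04%. The other large contributors were mt-Cytb of complex III (14.7% in the control, 13.3% in the knockout library), mt-Co3 (12.7% and 11.2%) and mt-Nd4 of complex I (5.89% and 5.80%). In relative size the largest gap between a library's high-mitochondrial and other barcodes was for mt-Nd6, the lowest gene, with 0.0372% against 0.0508% in the knockout library (406 UMIs). In the control the largest gap was for mt-Nd5 (1.064% against 1.21%). The complex I genes mt-Nd1 and mt-Nd3 differed more between libraries than between the 2 kinds of barcode: mt-Nd1 held 3.16% in the control and 7.67% in the knockout library, and mt-Nd3 0.709% and 2.14%. The remaining genes in the control and the knockout library were mt-Nd4l (3.82% and 4.60%), mt-Nd2 (2.23% and 3.81%), mt-Nd5 (1.064% and 1.52%) and mt-Atp8 (0.439% and 0.763%).

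The cell types behind the selected barcodes were inferred from nuclear genes alone. Barcodes under 25% were clustered in each library, clusters were named "X-like" from fixed marker genes, and each barcode with at least 100 nuclear UMIs (595 control and 1591 Mettl14_cKO) took the cluster whose profile gave its counts the highest likelihood. Every control barcode went to an epithelial cluster, where the only other cluster on offer was T or NK-like, and 1586 of 1591 Mettl14_cKO barcodes did (99.7%, 99.3 to 99.9%). No control barcode was called T or NK-like (0 of 595, which allows up to 0.504%), and no B or plasma-like or myeloid-like cluster existed in the control to be called. Of the knockout barcodes 5 were so called: 2 T or NK-like, 2 myeloid-like and 1 B or plasma-like (0.314%, 0.102 to 0.732%). Barcodes under 25% weighted to the same total UMIs were called immune-like at 7.95% in the control and 29.7% in the knockout library. Red blood cells had no class of their own. Among high-mitochondrial knockout barcodes 1 of 1601 held 10% or more haemoglobin. Erythroid UMIs of these barcodes lay largely in the 2 called T or NK-like, so the 5 immune-like calls include a barcode rich in haemoglobin. With all barcodes of that library clustered together, 4 high-mitochondrial barcodes were immune-like (0.251%) and 1 fell in an erythroid-like cluster. Of the barcodes under 25% with 10% or more haemoglobin, 69 in the knockout library were called immune-like, 68 of them T or NK-like, whereas 38 in the control were called to unnamed epithelial clusters and 1 T or NK-like. The shares are therefore not over like classes, and without those barcodes, an alternative chosen after the data were seen, they were 8.09% and 27.3%. Read within the class, 0 of 386 control T or NK-like barcodes were high-mitochondrial (up to 0.777%), and 5 of 1232 immune-like barcodes of the knockout library were (0.406%, 0.132 to 0.945%). When barcodes under 25% were thinned to the depth of the high-mitochondrial ones and called again, 99.7% and 95.8% of immune-like barcodes kept an immune-like call.

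Within the epithelium the named class with the most calls was goblet-like in the control and cycling-like in the knockout library. In the control 78 barcodes were colonocyte-like (13.1%, 10.5 to 16.1%), 121 goblet-like (20.3%, 17.2 to 23.8%) and 111 cycling-like (18.7%, 15.6 to 22.0%). Another 267 (44.9%) went to epithelial clusters without a name. Among knockout barcodes 192 were colonocyte-like (12.1%, 10.5 to 13.8%), 52 goblet-like (3.27%, 2.45 to 4.26%), 234 cycling-like (14.7%, 13.002 to 16.5%) and 1095 (68.8%) unnamed epithelial. Rare classes were tuft-like with 15 and 8 barcodes, enteroendocrine-like with 1 and 5, and stem-like with 2 in the control. At the same total UMIs 3.13% of the other control barcodes and 3.499% of the other Mettl14_cKO barcodes were colonocyte-like, below the share among high-mitochondrial barcodes of the same library. The same held for goblet-like calls, with 8.97% and 1.98% of the other barcodes, and for cycling-like calls, with 7.30% and 8.43%. Enteroendocrine-like calls went the other way, with 2.88% and 7.50% of the other barcodes at that depth.

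Read within a class, the high-mitochondrial share was 6.53% of colonocyte-like barcodes in the control (78 of 1194, 5.198 to 8.09%) and 35.8% in the knockout library (192 of 537, 31.7 to 39.97%). Cycling-like barcodes had 5.74% (111 of 1934) and 18.6% (234 of 1255). Goblet-like barcodes went in the opposite direction, with 9.39% (121 of 1289, 7.85 to 11.1%) in the control and 4.76% (52 of 1092, 3.58 to 6.20%) in the knockout library. With all barcodes of a library clustered together the goblet-like direction turned, to 1.14% (19 of 1664) in the control and 19.3% (301 of 1562) in the knockout library. The colonocyte-like shares were then 5.80% and 19.1%, and the cycling-like ones 0.410% and 10.3%. The clusters behind a class were not the same kind in the 2 libraries, so these shares are set side by side only. In the control 108 of the 121 goblet-like calls went to a deep cluster led by Zg16, Spink1 and Clca1, which code for proteins secreted by goblet or other secretory cells. In the knockout library 229 of the 234 cycling-like calls went to a shallow cluster led by histone genes.

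**Figure D2:**
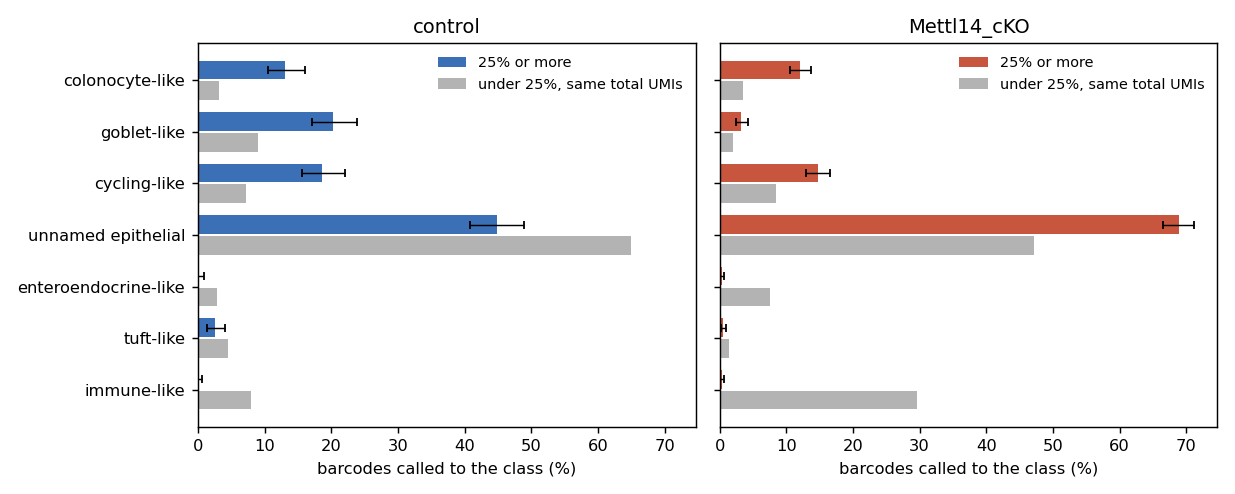
Percent of high-mitochondrial barcodes called to each class (coloured, with exact binomial intervals) beside barcodes under 25% weighted to the same total UMIs (grey), for the control (left) and Mettl14_cKO (right) libraries. Colonocyte-like calls are above the grey bars in both panels, and immune-like calls are 0% and 0.314% against 7.95% and 29.7%.

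The marker levels in the called barcodes set how firmly a call can be read. Levels are given as CPM, the UMIs of a gene scaled to a fixed total of 1000000 nuclear UMIs, so mitochondrial RNA does not enter them. Control barcodes called colonocyte-like held 57377 CPM of the 13 colonocyte markers, against 107519 CPM in the other colonocyte-like barcodes, and those of the knockout library held 22744 against 44913 CPM. Control barcodes called goblet-like held 33033 CPM of goblet markers against 86951 CPM, together with 23991 CPM of colonocyte markers, more than the 9318 CPM of the other goblet-like barcodes. The control calls held markers of both lineages. For the knockout library the few goblet-like calls held 75409 CPM of goblet markers against 58512 CPM. Cycling-like calls held 2004 CPM of cycling markers against 2230 in the control and 3202 against 1959 in the knockout library. The goblet-like and cycling-like shares also depended on how the call was made. With all barcodes of a library clustered together, 3.19% of the control high-mitochondrial barcodes were goblet-like and 0.672% cycling-like, and 18.9% and 8.67% of those in the knockout library. The colonocyte-like shares were 17.5% and 10.3% by that route, and the immune-like shares 0% and 0.251%.

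RNA free in the suspension gives UMIs in droplets whose cell does not express the gene, so the same detection was read in T or NK-like barcodes of the same library. Every barcode was thinned to 300 nuclear UMIs, which left out 50 control and 287 Mettl14_cKO high-mitochondrial barcodes that had fewer. Epcam, an adhesion protein of epithelial cells, was detected in 63.9% of high-mitochondrial control barcodes, 54.2% of barcodes under 25% with fewer than 3000 UMIs and 14.8% of T or NK-like barcodes. On the knockout side these shares were 35.6%, 29.6% and 3.83%. The T or NK-like barcodes of the knockout library included the 68 rich in haemoglobin named above: after thinning, T or NK markers were detected in 70.9% and erythroid markers in 16.0% of them, against 95.1% and 1.04% in the control. Without those 68, T or NK markers were detected in 81.1% of the rest, Epcam in 4.48%, Ptprc in 8.96% and colonocyte markers in 7.96%. Ptprc, the pan-leukocyte CD45, was detected in 0 of 545 control barcodes (up to 0.550%) and in 1 of 1314 Mettl14_cKO barcodes, against 12.2% and 7.23% of T or NK-like barcodes. At least 1 colonocyte marker was detected in 94.7% of high-mitochondrial control barcodes against 77.2% of the others at low depth and 57.0% of T or NK-like barcodes. Within the knockout library it was 39.1%, 17.4% and 6.60%. Goblet markers were detected in 97.1%, 86.5% and 72.5% of these control barcodes, so most of the T or NK-like barcodes held them too. Before thinning, with median depths of 470, 1386 and 1586 nuclear UMIs, colonocyte markers were detected in 99.5%, 98.9% and 98.2% of control barcodes, and Epcam in 76.8%, 86.5% and 57.3%. Among knockout barcodes, at 698, 1441 and 1784 nuclear UMIs, the unthinned shares were 58.2%, 46.5% and 30.2% for colonocyte markers and 62.1%, 62.1% and 21.1% for Epcam. Detection of epithelial genes after thinning was above that in T or NK-like barcodes in both libraries. Those barcodes were called from the same nuclear genes, so their detection of Epcam, Ptprc and colonocyte markers is in part set by the call. The contribution of free RNA to the remaining levels was not tested.

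The nuclear profile of the high-mitochondrial barcodes was then compared with barcodes under 25% of the same library, weighted to the same total UMIs in narrow bins, with 591 control and 1597 knockout barcodes entering. In the control 3499 genes had at least 50 CPM on 1 side, of which 163 (4.66%) were more than 2-fold higher in high-mitochondrial barcodes and 82 (2.34%) more than 2-fold lower. In the knockout library 194 of 3550 genes (5.46%) were higher and 230 (6.48%) lower. Over all genes compared, the median log2 ratio was 0.09 in the control and 0.16 in the knockout library. Of 2885 genes compared in both libraries, 91 were past 2-fold higher in the control and 128 in the knockout library. Of these, 54 were higher in both, 59.3% of the control's and 42.2% of the knockout library's. Past 2-fold lower were 60 and 117 of the 2885 genes, with 36 lower in both, 60% and 30.8%. No gene was past 2-fold in opposite directions.

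The genes highest in both libraries included transporters, enzymes and brush border proteins. Ranked by the smaller of the 2 ratios, the leading 8 were Slc9a2, Cyp2c55, Muc3, Ces2c, 1810065E05Rik, Dpep1, Cdhr2 and Tmigd1. Slc9a2, an apical sodium-proton exchanger, had 81.7 CPM in high-mitochondrial control barcodes against 17.9 CPM (log2 ratio 2.13, 1.52 to 2.73). For the knockout library it had 108 against 29.1 CPM (1.85, 1.58 to 2.12). The cytochrome P450 gene Cyp2c55 had 1010 against 280 CPM in the control (1.85, 1.65 to 2.05) and 362 against 73.1 CPM in the knockout library (2.29, 2.14 to 2.44). Both genes were higher on the high-mitochondrial side in each library. The membrane mucin Muc3 had log2 ratios of 1.81 and 1.81, the carboxylesterase Ces2c 1.79 and 1.95, and 1810065E05Rik 1.73 and 1.97. Dpep1, a brush border dipeptidase, had 1.89 and 1.70. Cdhr2, a cadherin that links microvilli, had 1.63 and 1.87, and Tmigd1 had 2.02 and 1.62. Each of these 8 genes had a counting interval above 1 in both libraries. They were picked for their ratios in these same data, so this is no separate result. Among them Slc9a2 and Tmigd1 in both libraries, and Ces2c in the knockout library, reached 50 CPM only in high-mitochondrial barcodes.

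In the control by itself the highest were Ces2a (174 against 19.2 CPM, log2 ratio 3.12), Slc51a (128 against 19.98 CPM, 2.62), Cpn1 (57.2 against 9.77 CPM, 2.43) and Prap1 (180 against 36.2 CPM, 2.28). Ces2a codes for a carboxylesterase and Slc51a for a subunit of the basolateral bile acid exporter. On the knockout side Ces2a and Slc51a had ratios of 2.43 and 2.14, but Cpn1 and Prap1 had 0.29 and 0.65 with intervals that reached 0. The highest in the knockout library were Apol10a (73.7 against 8.42 CPM, 2.99), Cyp2c55, 1810065E05Rik and Ces2c, and Apol10a had 1.42 in the control. Ces2a, Slc51a, Cpn1, Prap1 and Apol10a, in the library where each was highest, reached 50 CPM only in high-mitochondrial barcodes. That they were higher there is no separate result.

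**Figure D3:**
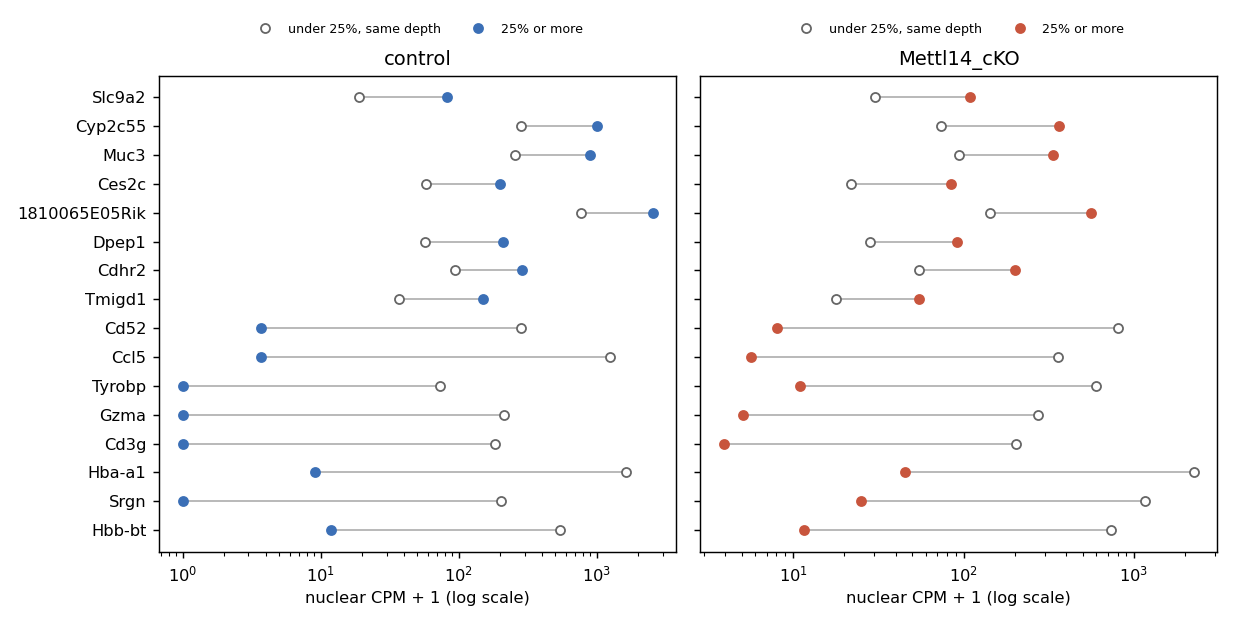
Nuclear CPM plus 1 (log scale) of the 8 genes highest and the 8 lowest in both libraries, in high-mitochondrial barcodes (filled) and in barcodes under 25% of the same depth (open), for the control (left) and Mettl14_cKO (right) libraries. The genes were chosen by these ratios, so the upper 8 are higher in the filled points and the lower 8 are lower. Of the lower 8, 4 had 0 UMIs in high-mitochondrial control barcodes.

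The colonocyte markers were chosen with earlier results known, and of these 8 genes they hold Cyp2c55. Of 13 markers 12 passed the minimum in the control and 8 were past 2-fold higher, with a median log2 ratio of 1.18 and none past 2-fold lower. Within the knockout library 9 passed and 6 were past 2-fold higher (median 1.21, none lower). Over all genes compared, 4.66% in the control and 5.46% in the knockout library were past 2-fold higher. Of the markers counted as higher, Car4, Slc26a3 and Ceacam20 in the control and Aqp8 in the knockout library reached 50 CPM only in high-mitochondrial barcodes. That these were higher is no separate result. The summed level of the 13 markers was 22856 against 10790 CPM in the control (log2 ratio 1.08, 1.04 to 1.12) and 4611 against 1879 CPM in the knockout library (1.29, 1.26 to 1.33). Here and in the lists that follow, members are named by the mean of both libraries' ratios, over those that passed the minimum in at least 1 library, so an order in 1 library can differ. Besides Cyp2c55, the highest member by that mean was the adhesion molecule Ceacam20 with ratios of 2.07 and 1.94. The lowest were the sulfotransferase Sult1a1 (0.88 and 0.11) and Ly6g, with 0 UMIs in high-mitochondrial control barcodes and a ratio of 0.91 in the knockout library. Car1, the colonic carbonic anhydrase, was the second most abundant nuclear gene of the control's high-mitochondrial barcodes, with 14282 against 6885 CPM. The pan-epithelial genes, which all epithelial classes share, were higher by less: 14419 against 11516 CPM in the control (0.32, 0.28 to 0.37) and 7485 against 5637 CPM in the knockout library (0.41, 0.38 to 0.44). Cdh1, the adherens junction cadherin, led by the mean with 0.86 and 0.79, followed by Krt19 with 0.23 and 0.76, although Epcam was above Krt19 in the control. Epcam had 0.61 and 0.23 and Krt18 -0.55 and 0.08.

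Markers of the secretory and cycling lineages had ratios that depended on the barcodes compared. The summed goblet markers were 20122 against 26960 CPM in the control (log2 ratio -0.42, -0.46 to -0.39) and 15952 against 14755 CPM in the knockout library (0.11, 0.09 to 0.13). Against epithelial-called barcodes only, the sums were at -0.56 and -0.29. In the control 3 of 11 goblet markers were past 2-fold lower, with a median of -0.76, beside 2.34% of all genes compared. On the knockout side none of 10 markers was past 2-fold either way, with a median of 0.26, which was -0.13 against epithelial-called barcodes only. The transcription factor Atoh1 had ratios of -0.07 and 0.48 and the disulfide isomerase Agr2 0.02 and -0.10. The mucus protein Fcgbp and the trefoil peptide Tff3 were the lowest by the mean, with control ratios of -1.34 and -1.34 and knockout ratios of 0.42 and -0.07, where Agr2 was below both. The summed cycling markers were 1114 against 1139 CPM in the control (-0.03, -0.19 to 0.13) and 773 against 590 CPM in the knockout library (0.39, 0.30 to 0.48), and no cycling marker was past 2-fold in either. The knockout value was 0.12 against epithelial-called barcodes and 0.08 (-0.016 to 0.18) with clusters matched. Birc5 and Ube2c, mitotic genes, had control ratios of 0.52 and 0.13 and knockout ratios of -0.02 and 0.31. Tyms, a thymidylate synthase, had -0.21 and 0.23, and Top2a, a topoisomerase of dividing cells, -0.88 and 0.61.

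Enteroendocrine genes were lower in both libraries. Their 10 markers summed to 1209 against 3032 CPM in the control (log2 ratio -1.33, -1.47 to -1.18), where 5 of 7 that passed the minimum were past 2-fold lower. In the knockout library they summed to 782 against 7357 CPM (-3.23, -3.31 to -3.15), where 7 of 8 were. Over all genes compared, 2.34% in the control and 6.48% in the knockout library were past 2-fold lower. Tph1 and Insl5 in the control and Neurod1, Tph1, Gcg and Cck in the knockout library passed the minimum only through the barcodes under 25%. That these were past 2-fold lower is no separate result. The secretin gene Sct had ratios of -1.38 and -0.53 and the proglucagon gene Gcg -0.79 and -2.22. The cholecystokinin gene Cck had 0 UMIs in high-mitochondrial control barcodes and a ratio of -2.81 in the knockout library. Neurod1, an enteroendocrine transcription factor, had -2.67 and -4.66, the first on 1 UMI.

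The lowest genes in both libraries were those of immune and red blood cells. The 8 were Cd52, Ccl5, Tyrobp, Gzma, Cd3g, Hba-a1, Srgn and Hbb-bt. All 8 passed the minimum of 50 CPM only through the barcodes under 25%. They were also ranked by ratio, so that they were lower is no separate result. The chemokine Ccl5 had 1 UMI (2.72 CPM) in high-mitochondrial control barcodes against 1249 CPM, and 8 UMIs (4.68 CPM) against 355 CPM in the knockout library. The leukocyte antigen Cd52 had 1 and 12 UMIs, against 282 and 801 CPM. The granzyme Gzma was absent from the control's high-mitochondrial barcodes and at least 26.1-fold lower, taking a floor of 3 UMIs over the group. The T cell receptor subunit Cd3g (at least 22.4-fold lower), the granule proteoglycan Srgn (at least 24.9-fold) and the adaptor Tyrobp (at least 8.87-fold) were also absent there. For the knockout library these 4 genes had 7, 5, 41 and 17 UMIs and log2 ratios of -5.75, -5.69, -5.53 and -5.78. All of them are made by lymphocytes or myeloid cells. Against epithelial-called barcodes only, Ccl5, Gzma, Cd3g, Srgn and Tyrobp in the knockout library were at 0.86, 0.71, 0.09, 0.93 and 0.49. Lowest in the knockout library alone were the interleukin gene Il17a (0 UMIs, at least 99.3-fold lower), BC100530 (1 UMI, log2 ratio -6.75), Cd52 and the chemokine Ccl4 (6 UMIs, -6.64). These too passed the minimum there only through the barcodes under 25%. In the control, where immune-like clusters other than T or NK-like were not found, Il17a was at 0 UMIs against 11.2 CPM (at least 1.37-fold lower), Ccl4 had 1 UMI and BC100530 was at 0 on both sides.

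The T or NK markers summed to 8.17 against 2378 CPM in the control and 23.4 against 1259 CPM in the knockout library. They passed the minimum, 8 in the control and 6 in the knockout library, only through the barcodes under 25%, so that they were past 2-fold lower is no separate result. Of these markers Cd3d had log2 ratios of -4.38 and -5.06 and Cd7 was at 0 UMIs in the control and -3.40 in the knockout library. The myeloid markers summed to 81.7 against 173 CPM in the control (log2 ratio -1.08) and 389 against 10081 CPM in the knockout library (-4.69). The neutrophil genes S100a8 and S100a9 had -4.30 and -5.32 in the knockout library and 0 UMIs in the control's high-mitochondrial barcodes. Cd14 had 0.92 and -3.03 and the complement gene C1qa, on 1 and 6 UMIs, -1.02 and -3.64. The summed B or plasma markers were 2.72 against 33.7 CPM and 153 against 1579 CPM, and the pan-immune markers 5.45 against 547 and 87.7 against 1537 CPM. Fibroblast, endothelial and glia markers were at 8.19 CPM or less in the high-mitochondrial barcodes of both libraries. Tuft markers were lower, with 24.5 against 179 CPM and 21.6 against 329 CPM. In the knockout library Alox5ap alone held 272 of the 329 CPM, and myeloid-like barcodes under 25% held 1590 CPM of tuft markers. Against epithelial-called barcodes only, the tuft sums had log2 ratios of -2.88 in the control and -1.77 in the knockout library. With clusters matched they had -2.02 and -0.10, the latter with an interval that reached 0 (-0.70 to 0.51).

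Haemoglobin genes were lower in sum, and few barcodes held most of their UMIs. The erythroid list held 84.4 against 11180 CPM in the control (log2 ratio -7.03) and 344 against 14548 CPM in the knockout library (-5.40). Hba-a1 had ratios of -7.47 and -5.63, Hbb-bt -5.51 and -5.99, Hbb-bs -7.30 and -5.29, and Hba-a2 -6.04 and -5.41. Haemoglobin held 10% or more of the nuclear UMIs in 39 control and 71 Mettl14_cKO barcodes under 25%, with medians of 0.251% and 0.448% mitochondrial UMIs. Among high-mitochondrial barcodes 0 of 595 (up to 0.504%) and 1 of 1601 held that much. Where the barcodes under 25% needed at least 500 genes, the erythroid median in the knockout library turned to 0.61. The knockout level of 344 CPM rests largely on 2 high-mitochondrial barcodes called T or NK-like, with 202703 CPM of erythroid markers.

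Because immune-like barcodes were nearly absent on one side, the comparison was repeated against epithelial-called barcodes under 25% only, an alternative chosen after the data were seen. In the control 116 of 3493 genes (3.32%) were then past 2-fold higher and 63 (1.8%) lower. On the knockout side 55 of 3382 (1.63%) were higher and 24 (0.71%) lower. The 8 highest in both were Cyp2c55, 1810065E05Rik, Ces2c, Slc9a2, Cdhr2, Muc3, Tmigd1 and Emp1, with log2 ratios between 1.36 and 1.98. The 8 lowest were Sst, Tph1, Pcsk1n, Chga, Pyy, Chgb, Sct and Gadd45g. Apart from Gadd45g these code for hormones of enteroendocrine cells or for proteins of their granules and of serotonin synthesis. Both sets were picked by ratio in these same data. Slc9a2 and Tmigd1 in both libraries, and Ces2c and Emp1 in the knockout library, reached 50 CPM only in high-mitochondrial barcodes. Sst, Tph1, Pcsk1n and Gadd45g reached it only in the barcodes under 25%. The directions of these genes are therefore no separate result. In the control the epithelial-called side still held 38 barcodes rich in haemoglobin. The erythroid list there was at 84.4 against 12650 CPM (-7.21), whereas in the knockout library it was at 344 against 185 CPM (0.89). The 344 CPM rests largely on 2 high-mitochondrial barcodes called T or NK-like, which held 202703 CPM of erythroid markers on 2294 nuclear UMIs. In each epithelial class the high-mitochondrial knockout barcodes held 92.4 CPM or less, so the positive sign rests on those 2 barcodes. Only 1 of the 2 held 10% or more haemoglobin. The peptide hormone gene Pyy had 229 against 643 CPM in the control (-1.49) and 191 against 3793 CPM in the knockout library (-4.30).

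Weighting to the same reference clusters as well as to depth gave smaller differences, with 474 control and 1473 knockout barcodes entering. In the control 75 of 3459 genes were past 2-fold higher and 62 lower, and in the knockout library 8 and 2 of 3300. The enteroendocrine median there turned to 0.26. The summed colonocyte markers then had log2 ratios of 0.04 and -0.20, and the pan-epithelial markers -0.05 and -0.08. Cyp2c55 had 0.18 and 0.59, and Slc9a2 0.41 and 0.57. Barcodes were called to clusters from the same nuclear genes, so this weighting takes out whatever the call itself used.

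Within single classes the depth-matched sets were small, so a gene was counted only where it was past 2-fold and its counting interval did not reach 0. Among colonocyte-like barcodes 364 of 3711 genes (9.81%) were higher and 84 (2.26%) lower in the control, and 181 of 3241 (5.58%) and 77 (2.38%) in the knockout library. Among cycling-like barcodes the control had 213 (6.09%) higher and 93 (2.66%) lower of 3499, and the knockout library 271 (6.6%) and 86 (2.1%) of 4103. Goblet-like barcodes had enough members in the control only, with 111 of 2319 (4.79%) higher and 60 (2.59%) lower. The genes named for both libraries were ranked by ratio alone and rested on few molecules. Within colonocyte-like barcodes they were Thra (9 and 18 UMIs), Ankfy1 (6 and 13) and the goblet gene Clca1 (4 and 20), and the lowest were Bola3, Il18 and Pmaip1 with 1 to 6 UMIs each. Within cycling-like barcodes the highest were Irf8, Mrpl45 and Lrig3 with 4 to 14 UMIs, and the lowest Zbtb8os, Irf2 and Akap7 with 0 to 5. In the control the intervals of Clca1, Il18, Pmaip1, Irf2 and Akap7 reached 0, as did those of Pmaip1 and Irf2 in the knockout library.

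Malat1, a long non-coding RNA held in nuclear speckles, was the most abundant nuclear gene of the high-mitochondrial barcodes in both libraries. It had 29646 against 23733 CPM in the control (log2 ratio 0.32, 0.29 to 0.35) and 47410 against 21489 CPM in the knockout library (1.14, 1.13 to 1.15). Matched on cluster as well, its ratios were 0.40 and 0.62. The list of 8 nuclear-retained RNAs summed to 39288 against 29858 CPM (0.40, 0.37 to 0.42) and 62796 against 28865 CPM (1.12, 1.11 to 1.13), with log2 ratios of 0.41 and 0.57 with clusters matched. Malat1 made up most of that sum in both libraries. Of its 5 members that passed the minimum none in the control and 3 in the knockout library were past 2-fold higher (medians 0.32 and 1.04). Over all genes compared, 4.66% in the control and 5.46% in the knockout library were. With 40% as the threshold the control median was -0.64. Gm42418, which overlaps ribosomal RNA repeats and can take up rRNA reads, had 0.75 and 1.08. Kcnq1ot1, a nuclear antisense RNA, had 0.68 and 0.78. The scaffold RNA of paraspeckles, Neat1, had 0.12 (-0.15 to 0.39) and 0.76 (0.65 to 0.87), and the imprinted RNA Meg3 had -0.58 and 1.04.

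Malat1 differed most between libraries at the highest mitochondrial shares. Among barcodes under 3000 UMIs its level in the control was 16231 CPM at 0 to 5% mitochondrial UMIs, 28009 CPM at 20 to 25% and 32772 CPM at 25 to 30%. It was 32020 CPM at 30 to 40%, 18943 CPM at 40 to 60% and 8415 CPM in the 11 barcodes at 60% or more. Within the knockout library it was 34074 CPM at 20 to 25%, 35638 CPM at 25 to 30%, 52691 CPM at 30 to 40%, 65811 CPM at 40 to 60% and 46476 CPM at 60% or more. The highest level was at 25 to 30% in the control and at 40 to 60% in the knockout library. Barcodes without any Malat1 UMI were 13.5% of control barcodes at 40 to 60% and 3.46% of Mettl14_cKO barcodes there. At 60% or more they were 3 of 11 control and 67 of 305 Mettl14_cKO barcodes (22.0%), where nuclear UMIs per barcode are also fewest. Within a bin the spread was wide: at 40 to 60% Malat1 held a median of 0.678% of nuclear UMIs in the control (5th to 95th percentile 0 to 6.09%) and 2.92% in the knockout library (0.271 to 23.5%).

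**Figure D4:**
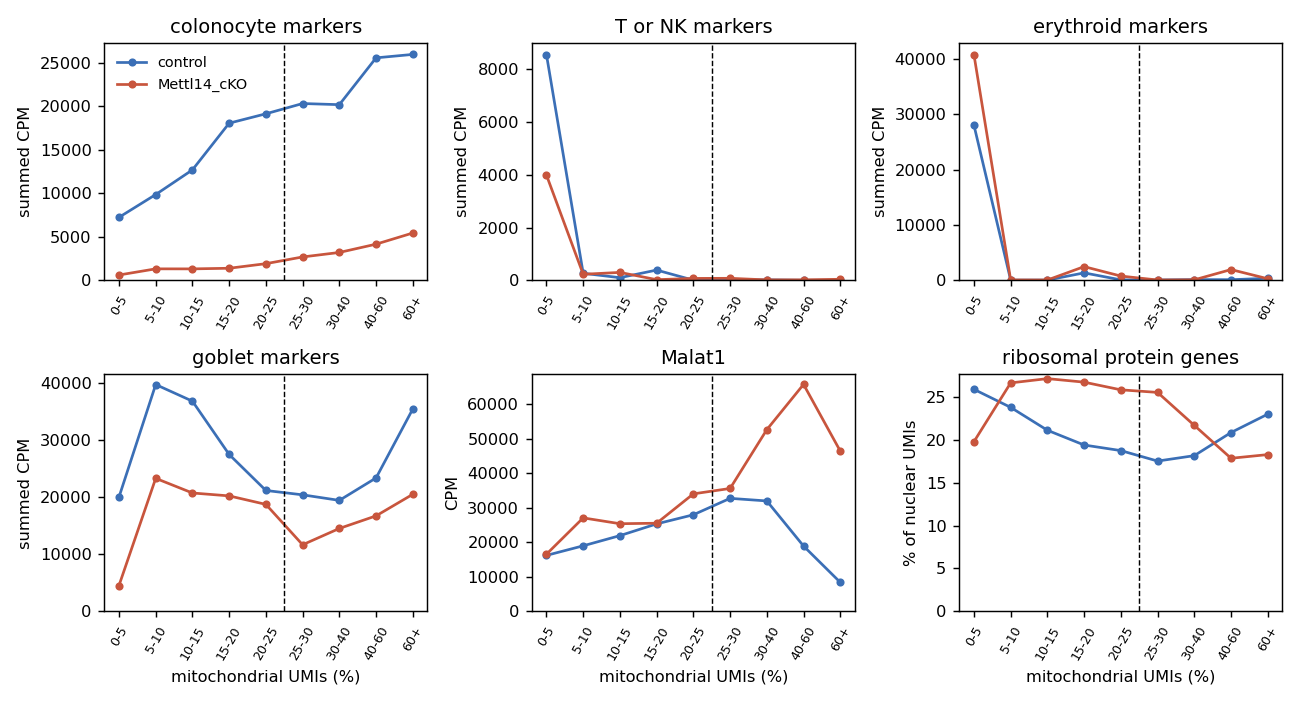
Summed CPM of 4 marker lists, Malat1 CPM and the ribosomal protein share of nuclear UMIs, in bins of mitochondrial share (x axis, percent) among barcodes under 3000 UMIs of each library. The dashed line is the 25% rule, across which colonocyte markers are higher on the right in both libraries while T or NK and erythroid markers are concentrated at 0 to 5%.

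Colonocyte markers were 7228 CPM in control barcodes at 0 to 5%, 19124 CPM just outside the rule at 20 to 25%, 20304 CPM just inside it at 25 to 30% and 25552 CPM at 40 to 60%. Among knockout barcodes they were 604, 1905, 2678 and 4147 CPM in these bins and 5429 CPM at 60% or more. Goblet markers were 21155 CPM just outside and 20391 CPM just inside the rule in the control, and 18719 and 11655 CPM in the knockout library. At 60% or more they were at 35414 and 20486 CPM. By depth, colonocyte markers in high-mitochondrial barcodes were at 18014 CPM at 500 to under 1000 UMIs and 37918 CPM at 2000 to under 4000 UMIs in the control, and 2561 and 5385 CPM in the knockout library. At 2000 to under 4000 UMIs the barcodes under 25% had 15461 and 1924 CPM.

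Cytosolic ribosomal protein genes, whose mRNAs are among the most abundant of the cytosol, were lower in the control. Their 30 members had a median log2 ratio of -0.33 and summed to 79817 against 100333 CPM (-0.33, -0.35 to -0.31). In the knockout library the median was -0.10 and the sum 102979 against 108992 CPM (-0.08, -0.09 to -0.07), and the median turned to 0.03 when 20% was used as the threshold. No member was past 2-fold in either library. Rpl4 and Rpl5 were the highest by the mean, with control ratios of -0.26 and -0.09 and knockout ratios of 0.29 and 0.11. Rps24 had -0.36 and -0.39, and Rps27 -0.47 and -0.32.

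Nuclear-encoded genes of the respiratory chain were close to all genes. The 30 oxidative phosphorylation genes summed to 28170 against 24780 CPM in the control (log2 ratio 0.18, 0.15 to 0.22) and 20618 against 19527 CPM in the knockout library (0.08, 0.06 to 0.09). None was past 2-fold, and the medians were 0.19 and 0.12, beside 0.09 and 0.16 over all genes. With clusters matched the sums were at -0.01 and -0.11. Sdha of complex II had ratios of 0.84 and 0.50 and Uqcrc1 of complex III 0.19 and 0.67. Atp5e, an ATP synthase subunit, had -0.21 and -0.09 and Ndufb3 of complex I -0.28 and -0.17.

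The mitochondrial stress response list summed to 632 against 666 CPM in the control (log2 ratio -0.07, -0.28 to 0.13) and 1034 against 751 CPM in the knockout library (0.46, 0.38 to 0.54). There 2 of 6 members were past 2-fold higher, beside 5.46% of all genes compared, and none of 4 in the control, beside 4.66%. Of these 2, Atf5 reached 50 CPM only in high-mitochondrial barcodes (65.5 against 23.1 CPM). Gdf15, a stress-induced cytokine, had 49.0 against 58.5 CPM in the control and 253 against 91.9 CPM in the knockout library (ratios -0.25 and 1.45, and 0.81 in the latter with clusters matched). The mitochondrial protease Lonp1 had 0.04 and 0.78, the transcription factor Atf4 -0.13 and 0.13, and the protease Clpp -0.34 and -0.13. Among heat shock genes the inducible chaperones Hspa1a and Hspa1b had control ratios of 0.85 and 0.78 and knockout ratios of 0.52 and 0.46. The constitutive Hsp90ab1 had -0.26 and -0.28 and Dnaja1 -0.37 and -1.17, and the list's median was -0.26 and -0.10. Immediate early genes, which dissociation of tissue is known to induce, had list sums at -0.21 and 0.13. By the mean, Klf4 (0.32 and 0.99) and Jun (-0.15 and 0.73) were highest and Nr4a1 (-1.12 and -0.58) and Klf2 (-1.06 and -2.25) lowest.

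The intrinsic apoptosis list summed to 1433 against 1186 CPM in the control (log2 ratio 0.27, 0.13 to 0.42) and 1011 against 1343 CPM in the knockout library (-0.41, -0.48 to -0.34). The knockout value was -0.039 (-0.12 to 0.040) against epithelial-called barcodes. With clusters matched the values were -0.058 (-0.23 to 0.12) and -0.072 (-0.16 to 0.014), with intervals that reached 0. Its pore-forming members Bak1 and Bax had control ratios of 0.72 and -0.51 and knockout ratios of 0.66 and -0.55. The caspase inhibitor Xiap had 0.71 and 0.29 and the BH3-only gene Bcl2l11 -1.52 and -2.97. The pyroptosis and necroptosis list, which holds the pore-forming gasdermins, had summed ratios of 0.37 (0.23 to 0.51) and -0.76 (-0.83 to -0.68). Its lowest members were the inflammasome genes Nlrp3 and Il1b, with -5.20 and -5.62 in the knockout library and 0 and 1 UMIs in high-mitochondrial control barcodes. Gsdmd had 0.62 and 1.23. With clusters matched the sums of this list were at 0.17 and 0.01.

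The gasdermin C genes differed by library. In the control Gsdmc2 had 51.8 against 52.6 CPM (19 UMIs, log2 ratio -0.02, -0.76 to 0.72), Gsdmc3 27.2 against 14.1 CPM (0.90, -0.19 to 1.99) and Gsdmc4 172 against 124 CPM (0.47, 0.03 to 0.90). For the knockout library Gsdmc2 had 29.2 against 5.56 CPM (50 UMIs, 2.20, 1.67 to 2.73) and Gsdmc3 25.7 against 5.64 CPM (44 UMIs, 2.01, 1.40 to 2.61). Gsdmc4 had 3.51 against 3.37 CPM there (0.05, -0.96 to 1.05). With clusters matched Gsdmc2 and Gsdmc3 were at 1.45 and 1.66 in the knockout library. These are near-identical paralogs, so reads may be divided among them. Mettl14 itself had 0 UMIs in high-mitochondrial control barcodes, where 3 UMIs would be 8.17 CPM, against 6.13 CPM in the others, and 13 UMIs (7.60 against 5.82 CPM) in the knockout library. The labels do not say which exons the floxed alleles span, so these counts do not check the deletion.

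Glycolysis genes had median log2 ratios of 0.36 in the control and 0.03 in the knockout library. The medians were 0.37 and 0.33 against epithelial-called barcodes only, and 0.06 and 0.25 with clusters matched, so their order depended on the comparison. By the mean, the hexokinase gene Hk2 (0.86 and 1.12) and the phosphofructokinase gene Pfkp (0.63 and 0.93) were highest. Pgk1 (-0.08 and -0.01) and Pgam1 (0.23 and -0.74) were lowest by the mean. In the list of cytoskeletal and cytosolic genes Fth1, the ferritin heavy chain, had 0.59 in the control and -2.21 in the knockout library, and Tmsb4x -0.54 and -2.31. With clusters matched Fth1 was at 0.10 and 0.11. The other members at the ends of this list were Myl6 (0.17 and 0.04) and Tpm1 (-0.35 and 0.47). Among antioxidant genes Gclc had -0.09 and 0.99 and Txnrd1 0.32 and 0.49, while Sod2 had 0.05 and -1.52 and Hmox1, with 0 and 13 UMIs, was the lowest by the mean. Mitophagy genes had medians of -0.22 and -0.63. These were -0.09 and -0.25 against epithelial-called barcodes only, and -0.23 and -0.13 with clusters matched. The summed knockout ratio was -0.62, then -0.10 and, with clusters matched, -0.06 (-0.14 to 0.02). Among members that passed the minimum, Dnm1l (0.15 and 0.33) and Mff (0.63 and -0.33) were highest by the mean. Map1lc3b (-0.27 and -1.18) and Bnip3l (-0.52 and -1.22) were lowest.

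**Figure D5:**
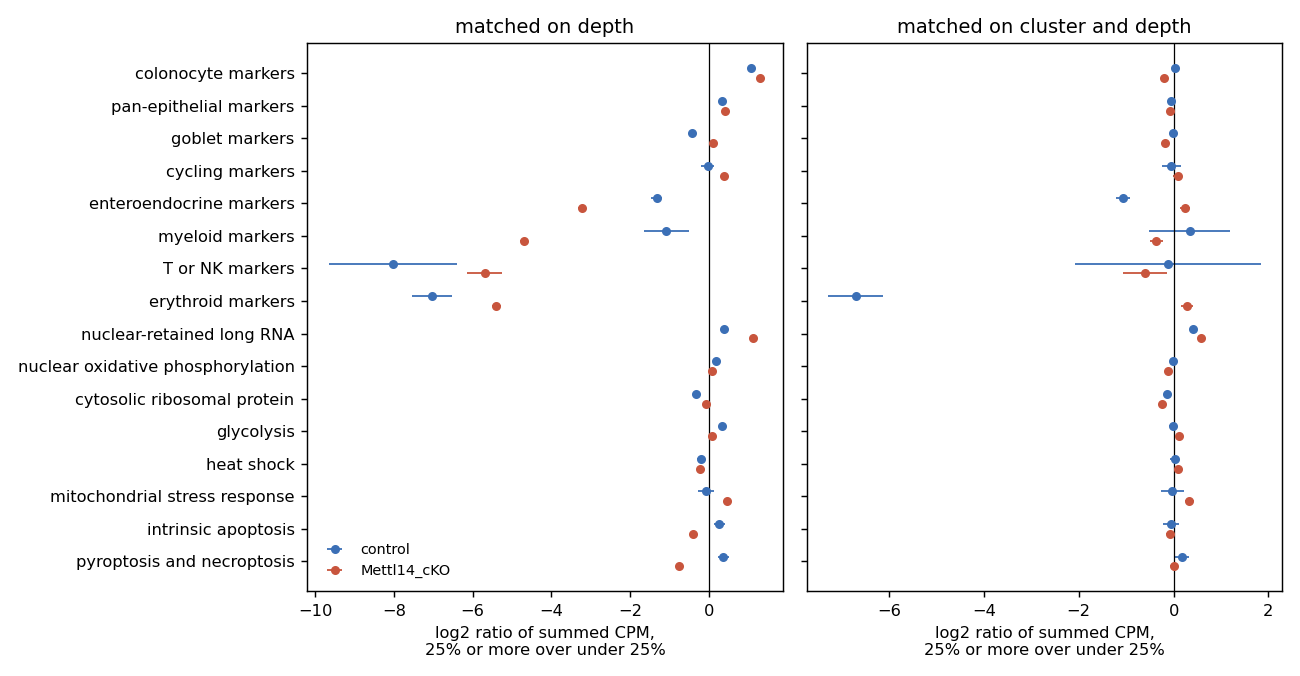
Log2 ratio of summed CPM, high-mitochondrial over other barcodes, for 8 marker lists and 8 gene lists in both libraries (points, with counting intervals), matched on total UMIs (left) and on reference cluster and total UMIs (right). Immune, erythroid and enteroendocrine markers are below 0 on the left, and nuclear-retained long RNAs are above 0 in both panels.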

How the data were processed

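The deposited values are raw UMI counts per gene and barcode, produced with Cell Ranger 3.0.0 per the submitters' processing notes, which also list Seurat 3, and with software version 3.1.0 per the file headers. Build and annotation: not given in the sources used here. Each matrix held 31053 genes. The barcodes and gene lists were chosen with earlier results of these data known.

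Barcodes under 25% with at least 500 genes were clustered per library on nuclear, non-ribosomal genes (2000 variable genes, 30 components, 15 neighbours, Leiden resolution 1, scanpy 1.11.5). Calls used a multinomial likelihood over nuclear genes. Cluster names needed at least 3 fixed markers among the 50 leading genes, a rule set after the data were seen. No doublet caller was run.

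Ratios are log2 of nuclear CPM plus 1, weighted over bins of 0.1 in log10 total UMIs that held at least 5 barcodes under 25%. Genes needed 50 CPM on 1 side and 10 UMIs. Y-linked genes, Xist and Tsix were left out. Shares have exact Clopper-Pearson intervals, and intervals and floors cover counting error only. No test was possible across 2 single libraries. Named genes were the 8 highest and 8 lowest in both libraries, the 4 and 4 of each library, 3 and 3 within classes, 2 and 2 per described list by the mean of both libraries' ratios, the mitochondrial genes, Malat1, Neat1, Mettl14, Gsdmc2, Gsdmc3 and Gsdmc4. The ratios and the calls were also run on simulated multinomial counts from 2 known profiles. That setting is simpler than the many related clusters of these libraries, so it does not check the calls made here.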

Additional observations from a re-analysis of the deposited data

Results flagged for a closer look

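The summed levels of 8 gene lists had log2 ratios of opposite sign in the libraries, each with a counting interval that did not reach 0. With 1 library per genotype the difference between libraries was not tested. In the control and then in the knockout library, the ratios were -0.42 and 0.11 for goblet markers, and -0.28 and 0.25 for mucus and other goblet secreted proteins. For secretory translocation they were 0.18 and -0.35, and for mitochondrial import and matrix chaperones 0.17 and -0.045. Immediate early genes had -0.21 and 0.13, and p53 targets -0.25 and 0.16. Intrinsic apoptosis genes had 0.27 and -0.41, and pyroptosis and necroptosis genes 0.37 and -0.76. Against epithelial-called barcodes only, the knockout values were -0.29 for goblet markers, -0.15 for goblet secreted proteins and 0.14 for pyroptosis and necroptosis genes. For intrinsic apoptosis the knockout value was -0.039 (-0.12 to 0.040), and with clusters matched both libraries were at -0.058 and -0.072 with intervals that reached 0.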

How the results depend on the processing

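No paired analysis was possible because each genotype is 1 library. Each group of values gives the control first and the knockout library second, and where a value moved the cause was not tested. The high-mitochondrial share was 8.62% and 23.7% with 20% as the threshold, 1.63% and 8.40% with 40%, and 1.74% and 12.2% among barcodes of 1000 UMIs or more.

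Class shares moved with the way of calling. With 40% as the threshold the colonocyte-like share was 7.23% and 14.2%, the goblet-like share 43.4% and 5.36%, and the cycling-like share in the knockout library 17.8%. Joint clustering put the high-mitochondrial share of goblet-like barcodes at 1.14% and 19.3%, that of cycling-like ones at 0.410% and 10.3%, and that of colonocyte-like ones at 19.1% in the knockout library. Among high-mitochondrial barcodes it gave 17.5% and 10.3% colonocyte-like, 3.19% and 18.9% goblet-like, and 0.672% and 8.67% cycling-like. With at least 500 nuclear UMIs these were 24.4% and 14.9%, 6.30% and 1.91%, and 14.1% and 10.5%. The cycling-like share was 22.2% and 20.1% without Malat1, Gm42418, Gm26917 and Neat1 (goblet-like 5.09% in the knockout library), 14.3% and 11.7% for calls with a margin of at least 5, and 9.74% in the knockout library without ribosomal protein genes.

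The number of genes compared changed with the setting, so counts are given over it. Genes past 2-fold higher numbered 363 of 3555 and 417 of 3763 with 40% as the threshold. Without a match on depth they were 520 of 3370 and 906 of 3653. With a minimum of 10 CPM they were 643 of 9058 and 561 of 9361, and with clusters matched 75 of 3459 and 8 of 3300. In the control they numbered 279 of 3639 with nuclear UMIs matched and 300 of 3703 with at least 500 genes. On the knockout side they numbered 114 of 3550 with a pseudocount of 10 CPM and 55 of 3382 against epithelial-called barcodes. Genes past 2-fold lower in the control numbered 556 of 3555 with 40%, 404 of 3639 with nuclear UMIs matched and 208 of 3703 with at least 500 genes. They were 729 of 9058 with 10 CPM and 156 of 4100 without ribosomal protein genes in the total. Those in the knockout library numbered 540 of 3653 without a match on depth and 693 of 9361 with 10 CPM. They were 2 of 3300 with clusters matched and 24 of 3382 against epithelial-called barcodes.

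List medians (log2) also moved. The goblet median in the control was -0.31 with 40%, -0.19 with clusters matched and -0.92 against epithelial-called barcodes, and in the knockout library 0.44 with 20%, -0.063 with clusters matched and -0.13 against epithelial-called barcodes. The colonocyte median in the control was 0.61 without a match on depth and 0.089 with clusters matched. For the knockout library it was 2.17 with 40%, 0.87 without a match on depth, 0.88 against epithelial-called barcodes and -0.26, of opposite sign, with clusters matched. The nuclear-retained RNA median in the control was 0.45 with 20%, -0.64 with 40%, 2.06 without a match on depth, 0.59 with at least 500 genes, 0.50 with 10 CPM and 0.40 with clusters matched. Its knockout value was 1.23 with 40%, 0.80 with nuclear UMIs matched, 2.48 without a match on depth, 0.62 with clusters matched, 0.64 against epithelial-called barcodes and 0.84 without Malat1, Gm42418 and Gm26917 in the total. The ribosomal median in the control was -0.024 with 40%, -0.43 with at least 500 genes and -0.12 with clusters matched. In the knockout library it was 0.030 with 20%, -0.29 with 40%, -0.039 with nuclear UMIs matched, -0.25 without a match on depth, -0.23 with clusters matched, -0.19 against epithelial-called barcodes and -0.041 without the 3 long RNAs.

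Other values of opposite sign were these. Without a match on depth, Fcgbp was 0.23 and Sct 0.41 in the control. With at least 500 genes, Hba-a2 was 0.66 and Hbb-bt 0.94 in the control, and in the knockout library the erythroid median was 0.61, Hba-a1 0.41, Hba-a2 0.19 and Hbb-bs 0.61. With clusters matched, the control had Ccl5 at 0.32, Cd3d at 2.65, Cd52 at 1.02, Ces2c at -0.11 and Klf2 at 0.28. The knockout library had medians of 0.26 for enteroendocrine, 0.35 for erythroid and 0.28 for pan-immune markers, and Cck at 0.79, Cd14 at 0.14, Cd3d at 0.30, Dnaja1 at 0.15, Fth1 at 0.11, Gcg at 0.33, Hba-a1 at 0.020, Hba-a2 at 0.33, Hbb-bs at 0.35, Nlrp3 at 0.10 and Sod2 at 0.0069. Against epithelial-called barcodes, Cd3d in the control was 1.94. The knockout library had medians of 0.63 for B or plasma, 1.34 for myeloid, 1.002 for erythroid and 0.13 for pan-immune markers, and C1qa at 0.18, Ccl5 at 0.86, Cd14 at 0.17, Cd3d at 0.55, Cd3g at 0.092, Fth1 at 0.36, Gzma at 0.71, Hba-a1 at 0.70, Hba-a2 at 0.81, Hbb-bs at 1.002, Hmox1 at 0.29, Il1b at 0.57, Nlrp3 at 0.73, S100a8 at 0.90, S100a9 at 1.78, Srgn at 0.93 and Tyrobp at 0.49. The positive erythroid values of the knockout library include 2 high-mitochondrial barcodes called T or NK-like, which together held 202703 CPM of erythroid markers. Of these 2, only 1 held 10% or more haemoglobin. Leaving out shared barcode sequences changed no direction among the 225 gene and list values compared. Depth limits single genes: 3 UMIs over the control's high-mitochondrial barcodes are 8.17 CPM.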
